A study of Homo sapiens with 4 samples.

Results

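The genes described here are the histone genes of the HIST clusters, the gene families that encode the H1 linker histones and the H2A, H2B, H3 and H4 core histones. They were taken as all genes of the deposited gene table whose name begins with HIST1H to HIST4H, leaving out names that end in P or in PS with a number, which mark pseudogenes. This rule found 67 of the 29670 genes in the table. Of the 67, 49 lie in the HIST1 cluster on chromosome 6, 14 carry HIST2 names and 3 carry HIST3 names on chromosome 1, and 1 is HIST4H4 on chromosome 12. By type they are 6 H1, 14 H2A, 22 H2B, 12 H3 and 13 H4 genes. GENCODE 29 annotates 63 of them as protein coding and 4 as pseudogenes (HIST2H2BA, HIST2H2BC, HIST2H2BD and HIST3H2BA), and these 4 are kept because the naming rule keeps them.

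The study measured total RNA of 4 established lines from liver tumours, in a series on circular RNA and its knockdown: Hep3B, HepG2, Huh-7D12, SK-Hep-1. No line is labelled with a treatment, and each is represented by 1 library, so the comparisons are between lines without replicates. Hep3B and Huh-7D12 come from hepatocellular carcinoma, HepG2 from hepatoblastoma, and SK-Hep-1 from ascites of a patient with liver adenocarcinoma. SK-Hep-1 has been described as endothelial rather than hepatocytic.

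In most animal cells histone proteins are made during S phase, when the replicated DNA has to be packaged. The genes of these clusters are the replication-dependent set: their messages mostly lack introns and end, in place of a poly(A) tail, in a short stem-loop that is bound by SLBP and trimmed with the help of the U7 snRNP. Libraries made by poly(A) selection lose most of these messages. Here ribosomal RNA was depleted and the selection step was omitted, so messages without a tail were retained.

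The stem-loop is the sequence that sets these messages apart, and examples of its 5 versions are printed from the GENCODE 29 transcripts, with the 16 bases of the loop and its stem in capitals. The first belongs to an H2A gene, the second to an H3 gene, the third to an H2B gene, the fourth to another H2A gene, and the last 2 to H4 genes.
HIST1H2AI: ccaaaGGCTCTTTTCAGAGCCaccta
HIST1H3H: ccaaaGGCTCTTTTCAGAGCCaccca
HIST1H2BC: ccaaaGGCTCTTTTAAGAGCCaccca
HIST1H2AG: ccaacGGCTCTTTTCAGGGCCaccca
HIST1H4E: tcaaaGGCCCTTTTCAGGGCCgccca
HIST1H4I: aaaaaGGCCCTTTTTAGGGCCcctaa
The pattern searched was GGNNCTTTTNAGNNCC on the transcript's own strand, and it was present in an annotated transcript of 33 of the 67 genes (49.3%) against 80 of 58676 annotated genes (0.136%). The version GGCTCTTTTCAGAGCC was held by 6 H2A, 9 H2B and 3 H3 genes, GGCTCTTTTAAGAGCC by 3 H2B genes and 1 H3 gene, and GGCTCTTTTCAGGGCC by 1 H2A and 2 H2B genes. The H4 genes had versions of their own among these genes, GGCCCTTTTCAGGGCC in 5 and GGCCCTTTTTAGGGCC in 3. Many gene models of these short genes stop at the coding sequence, so a missing match says only that the annotated transcript does not include these letters.

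Levels are deposited normalized read numbers put on a scale on which the mean column total of the 4 libraries is 1000000. Gene reads numbered 18581156 to 24409250 per library, and 1 read is worth a level of 0.0349 to 0.0547. Where 4 values are given in a row, they follow the order in which the lines were first named, with Hep3B first and SK-Hep-1 last. Mitochondrial genes held 29.2%, 47.4%, 17.4% and 34.8% of gene reads. Intervals are 95% intervals for counting error only, and they hold nothing of the spread between cultures of a line, which these data do not measure. The hepatocyte markers set SK-Hep-1 apart but cannot check the labels of the first 3 lines against each other. Their summed level was 34274, 29001, 15895 and 40.1. In SK-Hep-1, 6 of the 10 markers had 0 reads, albumin (ALB) among them. Endothelial markers summed to 0.454, 3.39, 1.66 and 18.4 over 9 genes, highest in SK-Hep-1, where ROBO4 held 16.4 of the sum and stood 14.3-fold above HepG2 (9.19 to 23.4), while PECAM1 had 0 reads. Leukocyte markers summed to 59.5, 2366, 59.9 and 1.32 over 8 genes. The lysozyme gene LYZ made up nearly all of it in the first 3 lines, whereas in SK-Hep-1 it had 1 read and CD14 had 0.950.

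Histone messages were most abundant in Huh-7D12 and least abundant in SK-Hep-1. The summed level of the 67 genes was 6881 (6851 to 6912), 7208 (7169 to 7247), 10697 (10655 to 10739) and 3275 (3249 to 3301). Huh-7D12 stood 3.27-fold above SK-Hep-1 (3.24 to 3.29), 1.55-fold above Hep3B and 1.48-fold above HepG2. Reads of these genes made up 0.808%, 0.575%, 1.36% and 0.296% of all gene reads in the same order. Of the reads outside mitochondrial genes they made up 1.14%, 1.09%, 1.64% and 0.455%. The positions of Huh-7D12 at the top and SK-Hep-1 at the bottom held on these scales, whereas HepG2 stood above Hep3B on the deposited scale and below it in both shares of reads. Fewer cells in S phase and less histone RNA per cell cannot be told apart in such bulk RNA.

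Every histone type was lowest in SK-Hep-1 and highest in Huh-7D12, by factors that differed between types. The H3 genes, which encode the core histone carrying many of the best studied modifications, summed to 1217, 1198, 2458 and 362, a ratio of 6.79 (6.62 to 6.97) between Huh-7D12 and SK-Hep-1. For the H4 genes the sums were 1084, 1132, 1305 and 690, and the same ratio was 1.89 (1.85 to 1.93). The H2A genes gave 1394, 1794, 2731 and 798, the H2B genes 2422, 2253, 3310 and 1084, and the H1 genes 764, 832, 892 and 342, with ratios of 3.42, 3.05 and 2.61. H3 and H4 pair in the nucleosome core. The share of histone reads from H3 genes was 23.0% in Huh-7D12 against 11.05% in SK-Hep-1, while that from H4 genes was 12.2% and 21.1%. These shares depend on gene length. Per kilobase of annotated exon they were 30.4% and 18.6% for H3 and 11.9% and 15.9% for H4. By this measure H3 stood above H4 in both lines, whereas by reads H4 stood above H3 in SK-Hep-1. The order in SK-Hep-1 thus depends on the lengths of the gene models. HIST1H4E, with 55.9% of the H4 reads there, has 1487 exon bases and 309 coding bases. HIST1H3C, the leading H3 gene, has 411 and 408. Shares per coding kilobase were not computed. These counts are of RNA, and the protein was not measured.

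**Figure D1:**
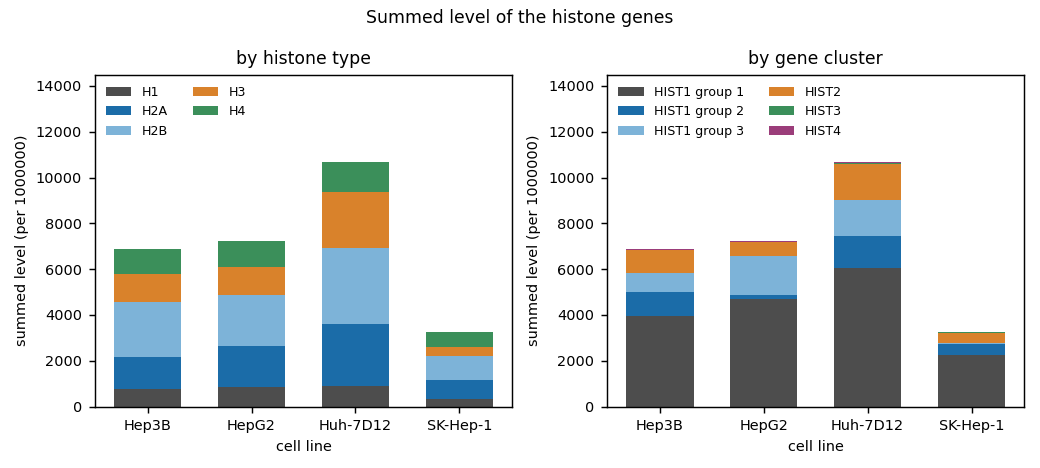
Summed level per 1000000 (vertical axes) of the histone genes in the 4 lines, stacked by histone type on the left and by gene cluster on the right. Total height is 10697 in Huh-7D12 against 3275 in SK-Hep-1, and the segment of HIST1 group 3 is nearly missing from the SK-Hep-1 bar (34.03).

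No small set of genes carried the whole signal, since the 8 to 10 most abundant members held the first 50% of histone reads in each line. Compared per kilobase of annotated exon, and averaged over the 4 lines, HIST1H3C came first with a level of 1615 per kb, followed by HIST1H3B (838), HIST2H2AC (791), HIST1H2BK (782) and HIST1H2AI (551). Of the first 10 genes in this order, 7 were also among the first 10 when coding length was used instead. HIST1H3C stayed first by coding length, but HIST1H4E and HIST1H2BC then came before HIST1H3B. HIST1H4E was not among the first 10 by exon length, so the order below HIST1H3C depends on the length used. HIST1H3C also held the largest part of the H3 reads in every line, from 34.4% in Hep3B to 61.3% in HepG2. HIST1H4E held the largest part of the H4 reads in every line, from 34.1% in Huh-7D12 to 55.9% in SK-Hep-1. The leading H2A gene changed with the line: HIST2H2AC in Hep3B and Huh-7D12, HIST1H2AI in HepG2 and HIST1H2AC in SK-Hep-1.

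A gene entered the comparison of lines when its highest level was at least 1, which 55 of the 67 histone genes did. Standing higher or lower meant that a gene lay at least 4-fold, on the scale of log2(level + 1), beyond the nearest of the other 3 lines. By this rule 6 of the 55 stood higher in Huh-7D12 (background over all 15850 genes that entered 1.52%) and 0 lower (0.536%). In SK-Hep-1 0 stood higher (5.37%) and 8 lower (3.31%). In HepG2 2 stood higher (1.46%) and 3 lower (1.15%), and in Hep3B 2 stood higher (0.808%) and 0 lower (0.448%). The shares among histone genes were thus 10.9% higher in Huh-7D12 and 14.5% lower in SK-Hep-1, several times the background, while none was higher in SK-Hep-1, the line with the largest background of higher genes. At 2-fold in place of 4-fold, 12 were higher (background 4.83%) and 0 lower (2.21%) in Huh-7D12, 0 higher (12.4%) and 19 lower (8.25%) in SK-Hep-1, 2 higher (4.62%) and 6 lower (2.97%) in HepG2, and 2 higher (3.36%) and 1 lower (2.18%) in Hep3B. Without the SK-Hep-1 library, 4 histone genes stood lower in Hep3B (background 0.89%) and 8 in HepG2 (background 2.62%), and with a pseudocount of 0.25 in all 4 lines 5 stood lower in HepG2 (background 2.25%). Across the lines, 19 of the 55 stood 4-fold apart in at least 1 (34.5%, background 14.2%).

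**Figure D2:**
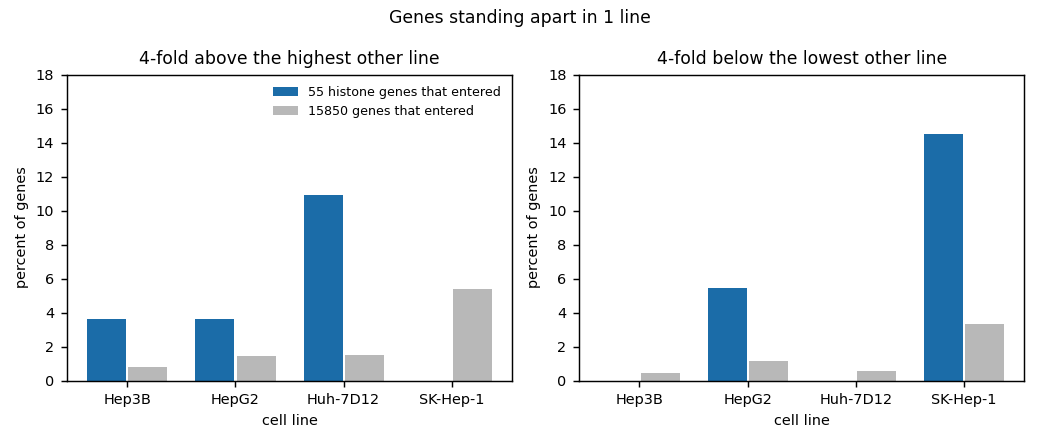
Percent of genes (vertical axes) standing at least 4-fold above the highest other line (left) or below the lowest other line (right), for the 55 histone genes that entered and for all 15850 genes that entered. The bars of the histone genes reach 10.9% for higher in Huh-7D12 and 14.5% for lower in SK-Hep-1.

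Below the 4-fold limit the same lines stood at the ends for most members. Huh-7D12 had the highest of the 4 levels for 33 of the 55 genes (60.0%, background 23.1%), and SK-Hep-1 had the lowest for 33 (60.0%, background 30.3%). Only 3 genes were highest in SK-Hep-1, namely HIST1H4H, HIST3H2A and HIST3H2BB (background 33.0%), and 2 were lowest in Huh-7D12, namely HIST1H2BF and HIST2H2BC (background 20.3%). Hep3B was highest for 9 (background 21.7%) and lowest for 2 (20.9%), and HepG2 was highest for 10 (22.2%) and lowest for 14 (20.9%). HIST1H4H and HIST1H2BF were singled out after their values were seen. The median difference of the 55 genes from the mean of the other 3 lines was 1.36 in Huh-7D12 against -1.24 in SK-Hep-1 on the log2 scale, where the median of all genes was -0.05 and -0.03. In Hep3B and HepG2 it was 0.30 and 0.06, and without the SK-Hep-1 library these became -0.02 and -0.45. The HepG2 value was also below 0 with a pseudocount of 4 (-0.13). With reads per 1000000 of all genes it was -0.40, beside a median of all genes of -0.45 under that scaling, so relative to all genes it was not lower.

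**Figure D3:**
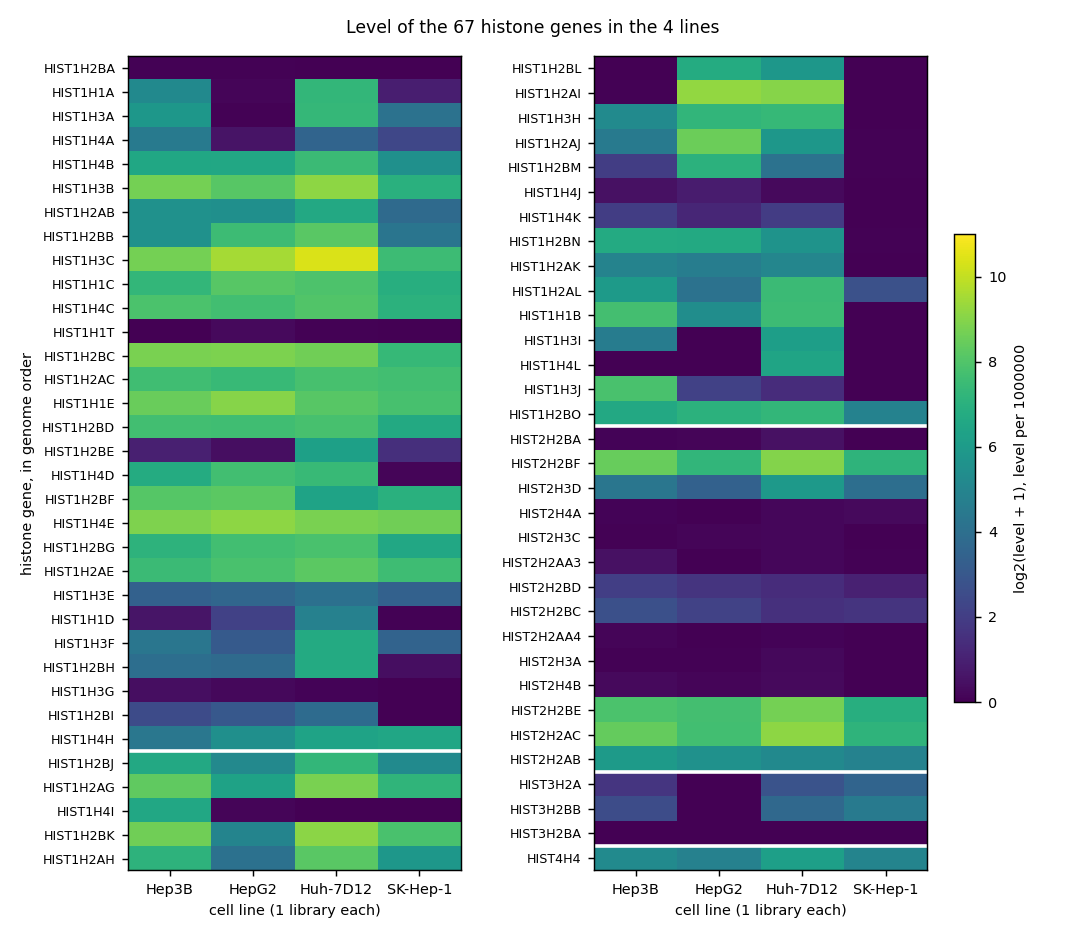
Level of each of the 67 histone genes as log2(level + 1), from 0 (dark) to 11 (yellow), in the 4 lines, in genome order within HIST1, HIST2, HIST3 and HIST4, with white lines between HIST1 group 1 (first 29 genes), group 2 and the other clusters; the right panel starts with HIST1 group 3. Some genes near 0 in a line lie together, as most of HIST1 group 3 in SK-Hep-1 and HIST1H1A, HIST1H3A and HIST1H4A in HepG2. Others, such as HIST1H4I in Huh-7D12, stand beside neighbours that are well covered in the same line.

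Among the linker histones, which bind the DNA between nucleosomes, some genes were even across lines and others nearly on or off. HIST1H1E had levels of 360, 506, 285 and 221. HIST1H1C had 156, 282, 242 and 119, so that for both genes HepG2 was highest and SK-Hep-1 lowest, 2.28-fold (2.20 to 2.37) and 2.36-fold (2.24 to 2.48) apart. HIST1H1A, a linker histone known from dividing cells, ranged from 153 in Huh-7D12 and 35.9 in Hep3B to 0.897 in SK-Hep-1 and 2 reads in HepG2, and it stood 4.25-fold above the nearest line, Hep3B (3.97 to 4.56). This distance was 1.96 on the log2 scale, just short of 4-fold, when reads outside mitochondrial genes set the scale. HIST1H1D was low outside Huh-7D12, with 0.558, 3.39, 27.3 and, from 1 read, 0.0528, and in Huh-7D12 it stood 8.05-fold above HepG2 (6.20 to 10.6). HIST1H1B was highest in Hep3B at 212, with 41.3 in HepG2, 184 in Huh-7D12 and no read in SK-Hep-1, which puts SK-Hep-1 at least 261-fold below HepG2. HIST1H1T, the linker histone of the testis, had 0, 4, 1 and 0 reads and did not enter.

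The H2A and H2B genes often lie in pairs that are read outward from a shared promoter region, and partners mostly shared their highest and lowest lines. With starts at most 1000 bases apart there were 10 such pairs, and in 8 of them both partners entered. Both partners of these 8 were highest in the same line in 7 and lowest in the same line in 6. The 6 include HIST1H2BL and HIST1H2AI, where HIST1H2BL had 0 reads in both Hep3B and SK-Hep-1. Huh-7D12 was highest for 60.0% of all histone genes that entered, and SK-Hep-1 lowest for 60.0%. Genes that are not partners would thus often agree too, and their share was not computed. In the other 2 pairs, with HIST2H2AA3 and HIST2H2AA4, the partners shared the highest line and not the lowest. HIST1H2BK and HIST1H2AH form 1 such pair, with levels of 395, 30.3, 540 and 226 for the first and 136, 16.1, 294 and 56.0 for the second, both lowest in HepG2. HIST1H2BK stood 7.47-fold lower in HepG2 than in SK-Hep-1, the nearest line (6.83 to 8.17). Its neighbours HIST1H2AG (318, 80.9, 437 and 148) and HIST1H2BJ (97.9, 35.2, 156 and 36.9) were also lowest in HepG2 and highest in Huh-7D12. HIST1H2BC, the H2B gene with the highest mean level before any adjustment for length, was even among the first 3 lines at 444, 452 and 389 and lower in SK-Hep-1 at 164.

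Several H2A and H2B genes were active in a subset of lines. HIST1H2AI had 595 in HepG2 and 514 in Huh-7D12, but 1 read in Hep3B and 0 in SK-Hep-1. Its partner HIST1H2BL had 108 and 55.3 in the same pair of lines and 0 reads in the other pair. HIST1H2AJ was highest in HepG2 at 367, against 56.4 in Huh-7D12, 22.3 in Hep3B and 1 read in SK-Hep-1, which put HepG2 6.52-fold above Huh-7D12 (6.14 to 6.92). Its partner HIST1H2BM had 3.001, 135, 16.6 and 1 read, the same order of lines, and HepG2 stood 8.14-fold above Huh-7D12 (7.31 to 9.08). In the transcripts of HIST1H2AI and HIST1H2AJ, 57.7% and 80.9% of 100-base windows also occur in other genes, so reads could be split between this near-identical pair. HIST1H2BM shares none, and without the genes that share most of their windows it was the 1 gene left that stood higher in HepG2.

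In Huh-7D12, 2 H2B genes stood alone. HIST1H2BE had 74.4 there against 0.977, 0.328 and 1.79 in Hep3B, HepG2 and SK-Hep-1, 41.5-fold above SK-Hep-1 (29.6 to 60.1). HIST1H2BH had 105 there, 14.8 in Hep3B, 13.1 in HepG2 and 6 reads in SK-Hep-1. This gene thus met the limit at both ends, 7.10-fold above Hep3B in Huh-7D12 (6.40 to 7.89) and 41.3-fold below HepG2 in SK-Hep-1 (18.7 to 114). HIST1H2BI, with 4.68, 7.27 and 13.3 in the first 3 lines, had 0 reads in SK-Hep-1. With a pseudocount of 4 the last 2 genes no longer met the limit in SK-Hep-1. HIST1H2BN and HIST1H2AK overlap on opposite strands, and both were nearly absent from SK-Hep-1: 104, 101, 48.8 and 1 read for HIST1H2BN, and 29.4, 24.5, 32.4 and 0 reads for HIST1H2AK. The libraries were stranded, but whether strand was used in counting is not given, so reads of these 2 genes may be mixed.

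The H3 genes of HIST1 ranged from even to strictly divided. HIST1H3C had levels of 419, 734, 1316 and 185, a range of 7.11-fold (6.87 to 7.37), and HIST1H3B had 409, 279, 565 and 126. HIST1H3A had 54.9, 159 and 16.5 in Hep3B, Huh-7D12 and SK-Hep-1 but 1 read in HepG2. HIST1H3F, with 19.1, 7.76, 105 and 10.2, stood 5.49-fold higher in Huh-7D12 than in Hep3B (5.01 to 6.04). HIST1H3H was high in 3 lines, at 37.2, 152 and 164, and had 0 reads in SK-Hep-1, at least 235-fold below Hep3B. HIST1H3J was a Hep3B gene, at 225 against 3.39, 1.61 and 0, 66.4-fold above HepG2 (51.8 to 86.8), and its model overlaps that of HIST1H2AM on the same strand. All these genes encode H3 of the replication-dependent kind.

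Among the H4 genes 3 were restricted in the same manner. HIST1H4I had 95.8 in Hep3B and 2, 0 and 0 reads in HepG2, Huh-7D12 and SK-Hep-1. HIST1H4L had 83.7, from 1971 reads, in Huh-7D12 and no read in the remaining lines, a distance of at least 510-fold. HIST1H4D had 108, 202 and 171 in Hep3B, HepG2 and Huh-7D12 and 2 reads in SK-Hep-1, a ratio of 1025 to Hep3B with a wide interval of 284 to 8468. Against these, HIST1H4E was nearly level, with 467, 557, 445 and 386 in the 4 lines, a range of 1.44-fold (1.40 to 1.49), and HIST1H4C ran from 134 in SK-Hep-1 to 255 in Huh-7D12. The last 2 genes had sequence of their own, with no 100-base window shared with another gene.

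Taking all members together, 35 of the 55 spanned at least 4-fold between their highest and lowest line on the scale with pseudocount (63.6%, background 31.4%), and 22 spanned at least 16-fold (40.0%, background 9.28%). Genes with no more than 3 reads in a line although another line had a level of 10 or more numbered 3 of 50 in Hep3B (background 4.2%), 7 of 52 in HepG2 (6.29%), 1 of 48 in Huh-7D12 (3.77%) and 15 of 51 in SK-Hep-1 (5.95%). The share in SK-Hep-1 was thus 29.4%, and in Hep3B and Huh-7D12 it was near the background. These were 19 different genes, 14 of them at or under 3 reads in 1 line, 3 in 2 lines and 2 in 3 lines.

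Position in the genome divided the genes with so few reads in SK-Hep-1. On chromosome 6 the HIST1 genes fall into 3 groups separated by more than 300 kb, given here with GENCODE 29 positions on GRCh38: group 1 with 29 genes at chr6:25726777-26285638, group 2 with 5 genes at chr6:27125897-27147515, and group 3 with 15 genes at chr6:27807444-27893843. Of the 15 genes at or under 3 reads in SK-Hep-1, 11 lie in group 3, 3 in group 1 and 1 in group 2. Group 3 summed to 821, 1680, 1563 and 34.03, so that Huh-7D12 stood 45.9-fold above SK-Hep-1 (42.5 to 49.7), against 2.67-fold in group 1 (2.64 to 2.70) and 3.06-fold in group 2 (2.99 to 3.13).

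The few reads that SK-Hep-1 had in group 3 came mainly from a single gene. HIST1H2BO, at the far end of the group, gave 83.1% of the 645 reads and had levels of 98.4, 133, 155 and 28.3 in the 4 lines. HIST1H2AL, with 63.2, 16.9, 177 and 5.59, was the only other member of the group at a level above 1 in SK-Hep-1, and its model overlaps that of HIST1H2BN. Both were singled out after their values were seen. The share of histone reads that came from group 3 was 11.9%, 23.3%, 14.6% and 1.04%.

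Other genes around group 3 were compared next. No gene of another kind in the table lies inside groups 2 and 3. Within 300 kb on either side of group 3, an interval chosen after the data were seen, 15 further genes of the table lie, of which 8 entered. Of the 8, 0 stood 4-fold higher or lower in any line (background 14.2%), which says little with so few genes. The 15 summed to a level of 118, 100.2, 59.1 and 90.7 over the 4 lines, and the 8 had median differences of 0.38, 0.42, -0.65 and -0.59 on the log2 scale. Of the 8, 2 had 3 reads or fewer in SK-Hep-1 and 2 in Huh-7D12. Of these neighbours ZKSCAN8, a zinc finger gene with the highest levels among them, had 76.9, 76.6, 48.1 and 80.4. The other 14 summed to 41.2, 23.6, 11.08 and 10.3, so without ZKSCAN8 the neighbours were lowest in SK-Hep-1, nearly level with Huh-7D12. In group 3 itself Huh-7D12 stood 45.9-fold above SK-Hep-1. ZKSCAN8 too was chosen after its values were seen.

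**Figure D4:**
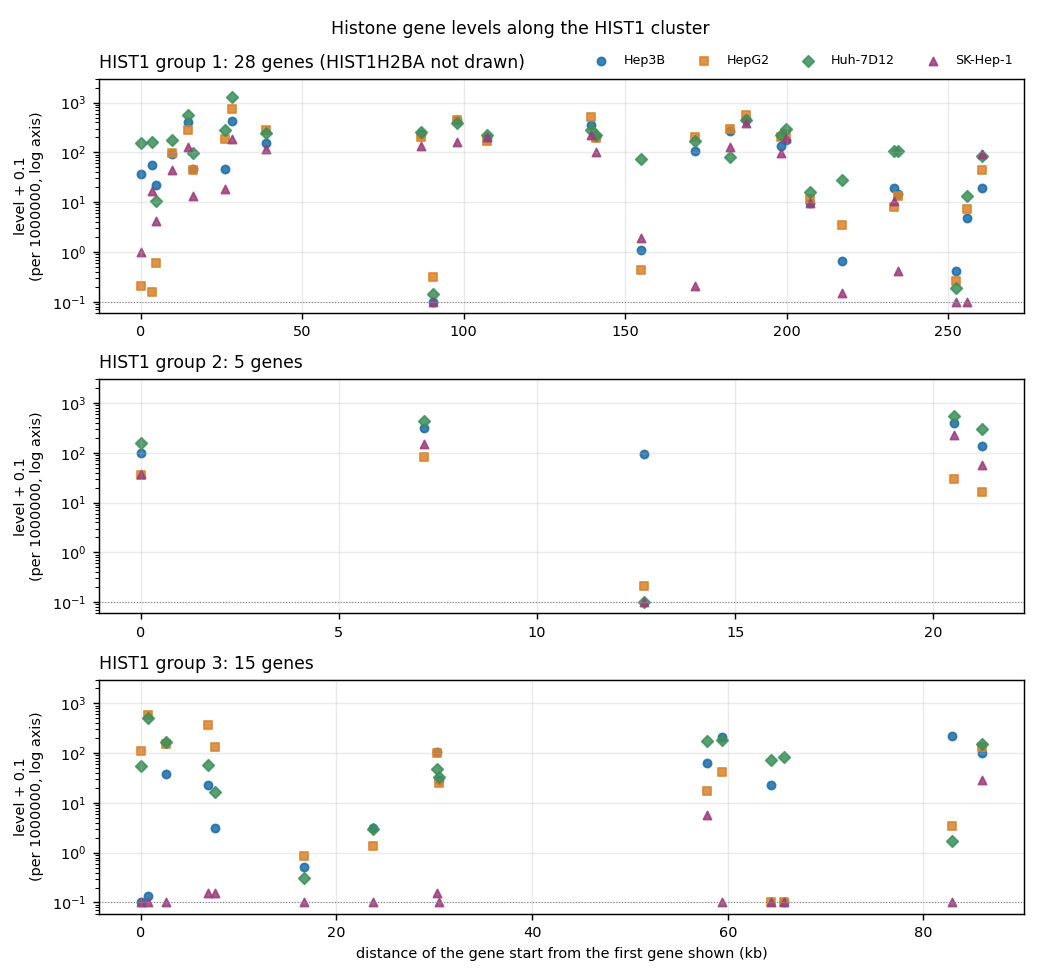
Level per 1000000 plus 0.1 (log axis) of the HIST1 genes against the distance of each gene's start from the first gene shown in kb, for group 1 (28 genes, HIST1H2BA being outside the range drawn), group 2 and group 3. Points on the dotted line had 0 reads; in group 3 most SK-Hep-1 points lie on or just above it, and in group 2 the HepG2 points lie lowest or level with SK-Hep-1 apart from HIST1H4I.

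HepG2 had a pattern of its own in group 2. The 5 genes there summed to 1042, 163, 1428 and 467, and 4 of the 5 were lowest in HepG2. Their median difference in HepG2 was -2.05 on the log2 scale, whereas in group 3 it was 1.07 in the same line. Within 300 kb of group 2 lie 10 further genes, which summed to 10.4, 2.84, 3.44 and 7.91 and were also lowest in HepG2. Of these, 3 entered, with a median difference of -0.70 in HepG2 and -0.71 in Huh-7D12. With only 3 genes, that 0 stood 4-fold apart (background 14.2%) says little. Near the start of group 1, the neighbours HIST1H1A, HIST1H3A and HIST1H4A had 2, 1 and 9 reads in HepG2. HIST1H4A, added after its values were seen, had levels of 21.9, 0.492, 10.7 and 4.01. The genes just beyond them, from HIST1H4B on, were well covered in HepG2, with 95.1 for HIST1H4B and 279 for HIST1H3B.

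Upstream sequences were compared because the genes of group 3 differ so widely between lines. RefSeq promoter windows on GRCh38.p14 were matched to 53 of the 67 genes, and the 250 bases before the start are used here. The first 2 sequences belong to H2A and H2B genes of group 3, the third to HIST1H4L, the H4 gene with reads only in Huh-7D12, and the fourth to HIST1H2AE, an H2A gene of group 1 with levels of 181, 230, 301 and 190. They lie at chr6:27807923-27808172, chr6:27814772-27815021, chr6:27873535-27873784 and chr6:26216671-26216920, all on the plus strand except the third, which is on the minus strand. Capitals mark matches on either strand to TATAAA, the letters of the TATA box, to CCAAT, the box bound by NF-Y, and to ATTTGCAT, the octamer bound by POU2F1. In HIST1H2BM and HIST1H2AE the only TATAAA match is on the opposite strand, far from the gene's own start. It lies toward the outward-facing partner, HIST1H2AJ or HIST1H2BG, as does the octamer of HIST1H2AE. These marks thus need not be sites of the printed genes.
HIST1H2AI: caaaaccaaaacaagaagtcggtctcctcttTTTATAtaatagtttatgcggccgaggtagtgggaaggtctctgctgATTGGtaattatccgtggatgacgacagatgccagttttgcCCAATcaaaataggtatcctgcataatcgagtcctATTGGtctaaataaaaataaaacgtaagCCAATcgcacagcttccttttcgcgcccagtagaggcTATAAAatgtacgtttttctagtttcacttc
HIST1H2BM: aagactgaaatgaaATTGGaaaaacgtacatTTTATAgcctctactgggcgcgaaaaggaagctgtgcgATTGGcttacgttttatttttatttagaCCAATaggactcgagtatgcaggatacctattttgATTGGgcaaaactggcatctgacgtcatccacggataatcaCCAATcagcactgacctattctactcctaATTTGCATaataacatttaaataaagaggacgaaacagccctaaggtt
HIST1H4L: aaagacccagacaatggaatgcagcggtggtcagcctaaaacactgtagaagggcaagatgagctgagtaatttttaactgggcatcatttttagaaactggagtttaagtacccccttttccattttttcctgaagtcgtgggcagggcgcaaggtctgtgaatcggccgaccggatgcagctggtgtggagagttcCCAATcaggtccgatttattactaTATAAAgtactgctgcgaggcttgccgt
HIST1H2AE: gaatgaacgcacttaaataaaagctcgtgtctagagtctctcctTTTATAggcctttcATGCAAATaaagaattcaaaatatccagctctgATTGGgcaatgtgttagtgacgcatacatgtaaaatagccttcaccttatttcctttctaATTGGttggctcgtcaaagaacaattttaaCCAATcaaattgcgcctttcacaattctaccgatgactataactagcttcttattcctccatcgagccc
HIST1H2AI and HIST1H2BM, which belong to neighbouring outward-facing pairs, share a run of 93 identical bases when 1 of the 2 is read on the opposite strand, and each shares at most 11 with HIST1H2AE.

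Of the 4 motifs searched, 3 were uneven between histone types. TATAAA, found in 3 of the 6 H1 windows and in 54.5% to 80.0% of the windows of each other type, was present in 36 of the 53 histone windows (67.9%) against 10.7% of all 35116 RefSeq windows. CCAAT was present in 44 (83.0%, against 32.0%): in every H1, H2A, H2B and H3 window and in 2 of the 11 H4 windows, HIST1H4L being 1 of these. The octamer was found in 17 (32.1%, against 1.63%), made up of 8 of 13 H2A windows and 9 of 13 H2B windows. Windows of outward-facing partners can overlap, since HIST2H2BE and HIST2H2AC, for example, lie 322 bases apart. A site between partners can then count for both genes, so the histone windows are not independent and their shares may be raised by this. AAACACA, the core of the H1 box, was found in all 6 H1 windows and in no other histone window (background 4.82%). The H1 genes that varied most and those that varied least thus held the same H1 box and a CCAAT box. A match is a description of letters, and the binding of factors was not measured.

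In the HIST2 cluster 7 genes entered and 0 stood 4-fold apart in any line. The background over all genes was 14.2%, so this says little with so few genes. Of its 14 genes, 13 lie at chr1:149782689-149887916 and HIST2H2BA lies apart near the centromere. Summed levels were 1013, 620, 1580 and 450. HIST2H2AC, an H2A gene, had 334, 204, 555 and 141. Its outward-facing partner HIST2H2BE had 236, 206, 420 and 120, so both were highest in Huh-7D12 and lowest in SK-Hep-1, with ranges of 3.92-fold (3.76 to 4.09) and 3.50-fold (3.35 to 3.67). HIST2H2BF followed the same order of ends with 351, 148, 504 and 142, and its model overlaps that of FCGR1A on the other strand.

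The remaining HIST2 genes were low or could not be resolved. HIST2H2AB, an H2A gene, had 63.6, 46.5, 35.9 and 28.1 and was the only protein-coding HIST2 gene that entered and was highest in Hep3B; it overlaps BOLA1 on the other strand. HIST2H3D, an H3 gene, had 19.1, 9.68, 60.6 and 14.7, with 51.3% of its windows found elsewhere. The annotated pseudogenes HIST2H2BC and HIST2H2BD, which overlap each other, had 5.37, 3.44, 1.87 and 2.16, and 3.14, 2.19, 1.61 and 1.002. HIST2H2AA3, HIST2H2AA4, HIST2H3A, HIST2H3C, HIST2H4A and HIST2H4B are pairs of near-identical copies, and each stayed at a level of 0.419 or less in every line. Nearly all of their 100-base windows occur in another gene, so these low values say little about their expression where a counter drops reads that match 2 places. HIST2H2BA had at most 10 reads in a line.

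HIST3 and HIST4 gave a small part of the reads and a different order of lines. HIST3H2A, an H2A gene, had 2.23, 0 reads, 5.99 and 10.6. Its outward-facing partner HIST3H2BB had 4.89, 0 reads, 12.1 and 21.2. Both were thus highest in SK-Hep-1, the line with the lowest histone sum, and absent from the reads of HepG2, where 0 reads allow a level of up to 0.164. HIST3H2BB stood at least 29.8-fold lower in HepG2 than in Hep3B, although at these low levels it did not meet the limit with a pseudocount of 4. The HIST3 genes are at chr1:228456979-228464626, and the third of them, HIST3H2BA, is annotated as a pseudogene and had 0 reads in all 4 lines. HIST4H4, a lone H4 gene on chromosome 12, had 37.9, 27.3, 73.2 and 30.4, again highest in Huh-7D12, with a range of 2.68-fold (2.43 to 2.97).

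Genes that act in the same phase of the cell cycle, or on the same messages, were set beside the histone genes. Among 46 genes of S phase and DNA replication, 23 were highest in Huh-7D12 (background 23.1%) and 42 lowest in SK-Hep-1 (background 30.3%). The sums of the 46 were 2434, 2207, 2911 and 973. MCM7, a subunit of the replicative helicase, had 211, 135, 341 and 86.7, and PCNA, the sliding clamp of the polymerases, had 124, 211, 123 and 52.8. Of the 46, 0 stood 4-fold apart (background 14.2%). All 25 mitosis genes were lowest in SK-Hep-1 (background 30.3%), and 5 of them (CDCA8, KIF20A, PLK1, TPX2 and AURKA) stood 4-fold lower there (background 3.31%). Their part in the histone levels was not tested.

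Genes of the machinery that makes histone messages had medians closer to 0. All 21 measured genes for 3′ end processing and turnover entered, and 0 stood 4-fold apart (background 14.2%). The median differences were 0.17, -0.11, 0.26 and -0.24 on the log2 scale. SLBP, the protein that binds the stem-loop, had 65.4, 42.3, 62.5 and 29.02, lowest in SK-Hep-1 as the histone genes were. NPAT, the coactivator of histone genes that is switched on by cyclin E and CDK2, had 24.0, 22.4, 21.6 and 24.8, so the 4 lines were close to each other. Of 13 genes for histone gene transcription 1 stood apart (background 14.2%), namely CDC25A, the phosphatase that activates CDK2. CDC25A had 91.8 in Huh-7D12 against 2.43 in SK-Hep-1 and was 7.87-fold lower in SK-Hep-1 than in Hep3B (5.82 to 10.9). POU2F1, which binds the octamer, had 53.3, 51.1, 55.02 and 35.5.

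Histone chaperones, which carry histones to DNA, fell between these lists. Of 25, 18 had SK-Hep-1 as their lowest line (background 30.3%), with medians of 0.16, 0.12, 0.41 and -0.80. NASP, a chaperone of H1 and H3, had 183, 190, 174 and 44.7, and ASF1A, which hands H3 and H4 on for assembly, stood 4.57-fold lower in SK-Hep-1 (3.76 to 5.61). NPM1, a nucleolar chaperone, ran the other way with 612, 1254, 1436 and 1652.

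The histone genes outside the HIST clusters, which encode variants made through the cell cycle, had another order of lines. Of 15 found among the deposited genes 11 entered and 0 stood 4-fold apart (background 14.2%), which says little with so few genes. The 11 had medians of 0.22, 0.42, -0.40 and -0.82, so Huh-7D12 was on the low side here. H3F3B, a gene of the H3 variant deposited outside replication, had 297, 315, 226 and 284, while H1F0, the linker histone known from cells that leave the cycle, had 91.3, 188, 35.1 and 71.2. H2AFZ, the gene of the variant H2A.Z, had 131, 152, 182 and 60.3.

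**Figure D5:**
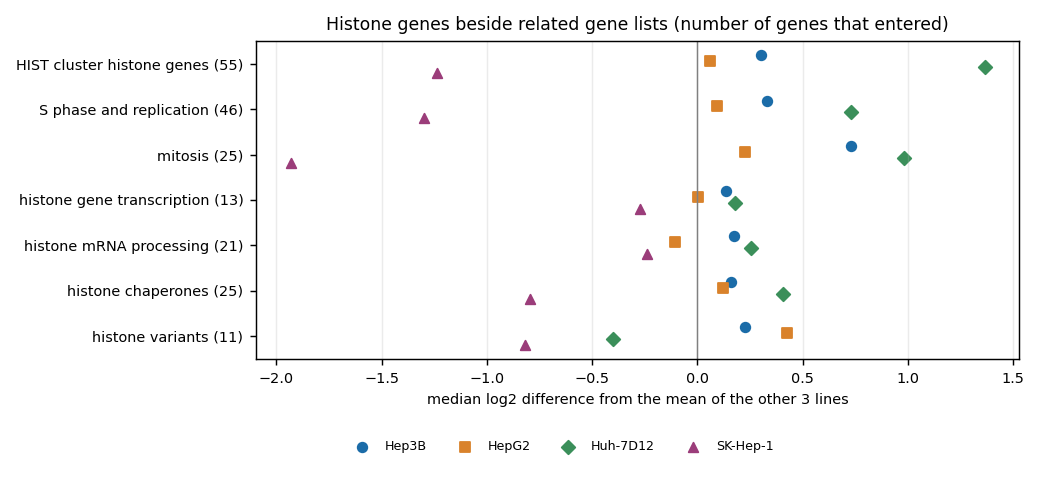
Median log2 difference of each line from the mean of the other 3 lines (horizontal axis) for the 55 histone genes that entered and for 6 related gene lists, with 1 symbol per line. The histone genes lie at 1.36 in Huh-7D12 against -1.24 in SK-Hep-1, and the lists for transcription and processing of histone messages lie between -0.27 and 0.26.

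No circular RNA in the series' table of 12473 circRNAs had 1 of these 67 genes as host. The genes mostly have a single exon, and back-splicing as usually described joins splice sites.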

How the data were processed

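Per the labels' protocols, ribosomal RNA was removed from DNase-treated total RNA, which was made into stranded libraries with poly(A) selection left out, and sequenced as 100-base paired reads. STAR 2.6.1d and hg38 are credited to the submitters' processing notes. The normalization, the counter, its annotation and its use of strand were not given in the sources used. The deposited signal values are whole reads that the authors multiplied by 1 factor per library: 100% of values divided by the smallest value of their library were whole within 0.001. From Hep3B to SK-Hep-1 the factors were 0.890, 1.39, 1.08 and 1.35. Levels rescale these values so that the mean column total is 1000000. With 1 library per line no residual spread exists, so no count model or other test across lines was run and no p-value is given, although reads were recovered.

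Genes entered at a level of 1 or more in some line, a pseudocount of 1 was added on the log2 scale, and a 4-fold distance from the nearest other line counted as standing apart. Because of the pseudocount, this scale understates the fold of genes with low levels. Ranges and folds in the text are ratios of levels without pseudocount. Levels and sums have exact Poisson 95% intervals, ratios exact binomial (Clopper-Pearson) ones, all for counting error only; a fold against 0 reads uses a floor of 3 reads per library and is written "at least". All 29670 identifiers matched GENCODE 29, which gave lengths, positions and 100-base transcript windows; promoters came from RefSeq (GRCh38.p14). The named members are all H1 genes, the 3 H2A, H2B, H3 and H4 genes with the highest mean level, all HIST2, HIST3 and HIST4 genes, and all that stood apart; others are stated where named. In the other lists, examples come from those with the highest mean levels or that stood apart, and SLBP, NPAT and NASP were added for their roles. E2F1 and E2F2 were added after their values were seen. The members and lists were chosen with earlier results of these data known. Python 3.11.15 with pandas 2.3.3, numpy 2.4.6 and scipy 1.17.1 was used, and the calls were tested on simulated data. Alternatives covered pseudocount, entry level, scaling, fold limit, leaving out SK-Hep-1 and leaving out copies.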

Additional observations from a re-analysis of the deposited data

How the results depend on the processing

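No paired analysis was possible because each line has 1 library. In these 4 libraries the 21 cases of a gene standing 4-fold apart all kept their direction and side of the limit at a pseudocount of 0.25, at an entry level of 5 or none, with reads per 1000000 of all genes and with median-of-ratios scaling. The 13 cases that do not involve SK-Hep-1 as the line apart held without that library. A pseudocount of 4 left 17 of 21, losing HIST1H1A (1.97), HIST3H2BB, HIST1H2BI and HIST1H2BH in SK-Hep-1 (-1.98). Scaling to reads outside mitochondrial genes left 20 of 21, losing HIST1H1A (1.96). The number standing lower in Hep3B was 4 without SK-Hep-1 (background 0.89%) and 1 at 2-fold (2.18%). The number lower in HepG2 was 5 at pseudocount 0.25 (2.25%), 8 without SK-Hep-1 (2.62%) and 6 at 2-fold (2.97%), and 1 stood higher there without genes that share windows, an alternative chosen after seeing the data. At 2-fold 12 stood higher in Huh-7D12 (background 4.83%) and 19 lower in SK-Hep-1 (background 8.25%). Median differences in Hep3B were 0.34 at pseudocount 0.25, 0.20 at pseudocount 4, 0.26 at entry level 5, 0.19 with no entry level, 0.55 per 1000000 of all genes, 0.46 per 1000000 outside mitochondrial genes, 0.29 by median of ratios, 0.32 without near-identical copies, 0.33 without genes that share windows and -0.019 without SK-Hep-1. In HepG2 they were 0.079 (pseudocount 0.25), -0.13 (pseudocount 4), 0.038 (no entry level), -0.40 (per 1000000 of all genes), 0.046 (median of ratios), 0.070 (no copies) and -0.45 (without SK-Hep-1), so the direction turned at pseudocount 4 and without SK-Hep-1, for which the cause was not tested, while -0.40 lies beside a median of all genes of -0.45 under that scaling. In Huh-7D12 they were 1.63, 1.20, 1.37, 1.12, 1.69, 1.35, 1.36, 1.32 and 1.27 in the order given for Hep3B, and 0.999 without SK-Hep-1. In SK-Hep-1 they were -1.24 at pseudocount 0.25, -1.12, -0.99 with no entry level, -1.46, -1.39, -1.20 and, without genes that share windows, -1.18. Reads per 1000000 of all genes moved the median of all genes in the 4 lines to 0.18, -0.45, 0.32 and -0.24, and scaling outside mitochondrial genes moved it to -0.21 in SK-Hep-1. Sums, from Hep3B to SK-Hep-1, were 8077, 5746, 13559 and 2965 per 1000000 of all genes, 11407, 10921, 16424 and 4550 outside mitochondrial genes, and 6816, 7144, 10651 and 3342 by median of ratios. Without genes that share windows the first 3 were 6835, 6234 and 10062, and without copies Huh-7D12 was 10635. Depth limits the genes with few reads, where 1 read is worth up to 0.0547.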

Other observations

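The 8 HIST genes that the naming rule left out as pseudogenes had few reads. From Hep3B to SK-Hep-1, HIST1H2APS5 had 16, 28, 39 and 8 reads, and HIST1H1PS1 had 4, 4, 2 and 3. The other 6 had at most 4 reads in any line. Inside HIST1 group 1, 12 genes of another kind are in the table, of which 5 entered and 1, TRIM38, stood 4-fold apart (background 14.2%). TRIM38, a ubiquitin ligase gene, had a level of 0.244 in Hep3B against 10.3 in HepG2, 7.56 for Huh-7D12 and 39.1 for SK-Hep-1. It was thus highest in the line with the lowest histone sum.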
